A study of Mus musculus with 2 samples.

Results

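Lymphatic endothelial cells (LECs) line the vessels that drain fluid and leukocytes from the tissue. In the lung they run beside airways and larger vessels and are far fewer than the endothelial cells (ECs) of the blood capillaries. The transcription factor Prox1 sets and keeps lymphatic identity, the receptor Flt4 (VEGFR-3) receives the growth factor VEGF-C, and the chemokine Ccl21 draws dendritic cells and T cells that carry its receptor Ccr7. LECs were chosen by their unique molecular identifiers (UMIs, each marking 1 captured RNA molecule). A barcode, the tag shared by the RNA of 1 droplet, had to have at least 1000 genes, less than 20% mitochondrial UMIs, at least 1 UMI of the endothelial genes Pecam1 or Cdh5, at least 1 UMI of Prox1, and at least 4 UMIs of Prox1, Mmrn1 and Reln together. The rule found 135 barcodes among 17707 with enough genes and few mitochondrial UMIs, 63 of 8742 in the control and 72 of 8965 in the B16-F10 library. They are called members below, and were set against 8540 and 8525 other endothelial barcodes, which had at least 2 UMIs of Pecam1 and Cdh5.

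To follow the endothelium in the first hours after melanoma cells reach the lung, wild-type (WT) C57BL/6 mice received phosphate-buffered saline (PBS, the control) or 400000 cells of the mouse skin melanoma line B16-F10, marked with a green dye, in 100 µl through the tail vein. Lungs were taken 6 h later, cells positive for Pecam1 and negative for the leukocyte protein Ptprc were sorted, and dyed melanoma cells from the injected lungs were added. The study's methods describe male mice of 8 to 10 weeks. Cells of several mice were pooled before library preparation, 2 per treatment by the labels and 3 by the methods, so each group was 1 library without a replicate. No test was possible, and every difference below is between 2 single libraries. Intervals hold 95% and count only the error of sampling UMIs. The libraries held 85794655 and 104978816 UMIs. Of the barcodes kept, 20 occurred in both libraries, and 0 of these were members. Members had a median of 8307 UMIs in the control (2253 to 24945) and 11268.5 in the B16-F10 library (2083 to 90449), and the other ECs 7771.5 and 9083.

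The sequences just upstream of RefSeq starts of 4 genes that mark the members are given because the results turn on these genes. Prox1 chose the members together with Mmrn1, a secreted multimerin. Stab2 is a scavenger receptor for hyaluronan, and Ccl21a the gene of the chemokine. Each sequence holds the 250 bases before a gene start in RefSeq (GRCm38.p6), 5′ to 3′ on the strand of the gene. These starts can differ from those of the GENCODE annotation. The Mmrn1 window lies inside its GENCODE span (60924976 to 60989378), and the Stab2 window overlaps the GENCODE gene, which ends at 87008025. For Prox1, which had 2 starts in RefSeq, the first is shown. Capitals mark matches, on either strand, to AACAAT (a core recognised by SOX factors), AGGTCA (a site recognised by nuclear receptors such as NR2F2) or TATAAA.
Prox1 (chr1:190170828-190171077, minus strand): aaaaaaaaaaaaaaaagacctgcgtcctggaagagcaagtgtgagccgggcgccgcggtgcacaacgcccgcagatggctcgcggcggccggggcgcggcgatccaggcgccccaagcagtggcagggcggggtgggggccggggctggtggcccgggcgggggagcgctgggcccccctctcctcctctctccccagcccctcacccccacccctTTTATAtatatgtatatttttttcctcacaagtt
Mmrn1 (chr6:60944067-60944316, plus strand): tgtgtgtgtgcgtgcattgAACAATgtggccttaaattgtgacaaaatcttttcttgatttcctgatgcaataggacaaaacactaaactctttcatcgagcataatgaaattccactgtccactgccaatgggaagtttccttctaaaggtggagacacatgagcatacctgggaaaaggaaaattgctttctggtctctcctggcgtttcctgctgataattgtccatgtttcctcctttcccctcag
Stab2 (chr10:87007943-87008192, minus strand): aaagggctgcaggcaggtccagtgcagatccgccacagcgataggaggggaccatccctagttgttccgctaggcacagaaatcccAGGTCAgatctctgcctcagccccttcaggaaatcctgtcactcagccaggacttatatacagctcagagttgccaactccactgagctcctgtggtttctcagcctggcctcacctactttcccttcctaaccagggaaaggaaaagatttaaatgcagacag
Ccl21a (chr4:42773992-42774241, minus strand): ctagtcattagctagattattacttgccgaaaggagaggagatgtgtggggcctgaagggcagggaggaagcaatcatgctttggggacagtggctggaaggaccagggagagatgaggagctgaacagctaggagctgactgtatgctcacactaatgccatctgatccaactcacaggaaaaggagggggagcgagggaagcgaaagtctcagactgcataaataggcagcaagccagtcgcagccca
The Prox1 sequence held 1 TATAAA match, read on the other strand, Mmrn1 1 AACAAT and Stab2 1 AGGTCA, while none of the 3 motifs was found in this window of Ccl21a. Over 32851 promoters, 9.42% held AACAAT, 14.0% AGGTCA and 12.4% TATAAA. Of the 20 genes that stood out most in members, 17 had promoters in the table, of which 4, 4 and 2 held the motifs in at least 1 promoter, beside 10.9%, 15.8% and 14.3% of all 27025 genes in the table counted the same way. A match is a description of letters and not a binding site.

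The members carried the lymphatic program well beyond the genes that chose them. Levels are given as CPM, the UMIs of a gene over the summed members scaled to 1000000 UMIs in all. Prox1 (ENSMUSG00000010175, chromosome 1, 190118035 to 190170714, minus strand; GRCm38) had 872 and 734 CPM in the control and B16-F10 members, Mmrn1 4213 and 2921 CPM, and Reln, a secreted matrix protein, 2327 and 1606 CPM. These 3 levels follow from the rule and are a description, as are all comparisons of members with other ECs, since the lymphatic program goes with the genes of the rule. Ccl21a (ENSMUSG00000094686, chromosome 4, 42772860 to 42773993, minus strand) was the most abundant lymphatic gene, with 16039.7 CPM (15716 to 16369) in the control and 19738 CPM (19456 to 20024) in the B16-F10 library. In the other ECs it had 4.52 and 6.13 CPM. Flt4, the given marker that the rule did not use, had 868 and 939 CPM in members and 58.8 and 51.5 CPM in other ECs. At least 1 Flt4 UMI was found in 61 of 63 and 70 of 72 members. After thinning each barcode to 2000 UMIs this was 79.4% and 84.7%, against 9.31% and 9.11% of 988 other ECs drawn per library. Ccl21a was found in all but 2 control and 3 B16-F10 members, so the lymphatic label held for the summed members and, with the exceptions given below, for their barcodes.

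Of 5682 genes with at least 50 UMIs over the members of both libraries, 672 (11.8%) were at least 2-fold higher in members than in other ECs in both. The 20 genes with the largest ratio were led by Ptx3, a pattern recognition pentraxin, with 194 and 276 CPM in members and 0 and 0.0466 CPM in other ECs. After Ccl21a came the guidance protein Sema3d, with 652 and 535 CPM and, in other ECs, 0.206 and 0.175 CPM. The list further held Hoxd9 and Tbx1, transcription factors, Apba2, an adaptor protein, Pcsk6, a proprotein convertase, Stab2, the adhesion protein Tenm3 and the calcium channel subunit Cacna2d3. Reln, Prox1, Mmrn1, Pld5, Slc45a3, Lrrn4cl, Gm525, Gm21541, 1810008I18Rik and 1110032F04Rik completed it. Ratios of the 20 genes ranged from 9.42 to 12.2 on the log2 scale in the library where each was smaller. Gm21541, on chromosome 4 near Ccl21a, and Ccl21b are near-identical copies of Ccl21a, so reads could be assigned to either. Gm21541 had 33 and 75 UMIs in members and Ccl21b 0 and 1, against 9328 and 18610 of Ccl21a.

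Not every textbook lymphatic gene was specific to the members. Pdpn (podoplanin), the membrane protein that binds the platelet receptor CLEC-2, had 330.1 and 278 CPM in members and 0.618 and 1.06 CPM in other ECs, and Thy1 242 and 205 CPM and 0.343 and 0.676 CPM. Maf, a transcription factor of lymphatic maturation, had 1513 and 1366 CPM and 1.72 and 3.40 CPM. Nrp2, the co-receptor of Flt4, had 1016 and 1234 CPM in members, and among blood vessel classes it was highest in barcodes that met a vein gate (50 and 56 barcodes), at 260.0 and 296 CPM. Nr2f2 (COUP-TFII), shared by veins and lymphatics, had 1362 and 1026 CPM in members and 648 and 659 CPM in vein barcodes. Itga9, the integrin alpha chain of lymphatic valves, had 383 and 527 CPM in members and 185 and 175 CPM in 88 and 55 artery barcodes. Lyve1, the hyaluronan receptor often used to mark lymphatics, did not set members apart. It had 1532 and 904 CPM in members, 1389 and 1386 CPM in other ECs, 1558 and 1595 CPM in general capillaries, 4554 and 3186 CPM in arteries and 248 and 288 CPM in aerocytes, the large capillary cells of gas exchange. After thinning, 54.0% and 52.8% of members had a Lyve1 UMI, against 68.0% and 75.4% of other ECs. Without thinning these were 65.1% and 75.0% against 81.8% and 89.0%. The general endothelial genes Pecam1 (827 and 666 CPM) and Cdh5 (665 and 724 CPM) were lower in members than in other ECs (1287 and 1201 CPM and 1864 and 1800.0 CPM).

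**Figure D1:**
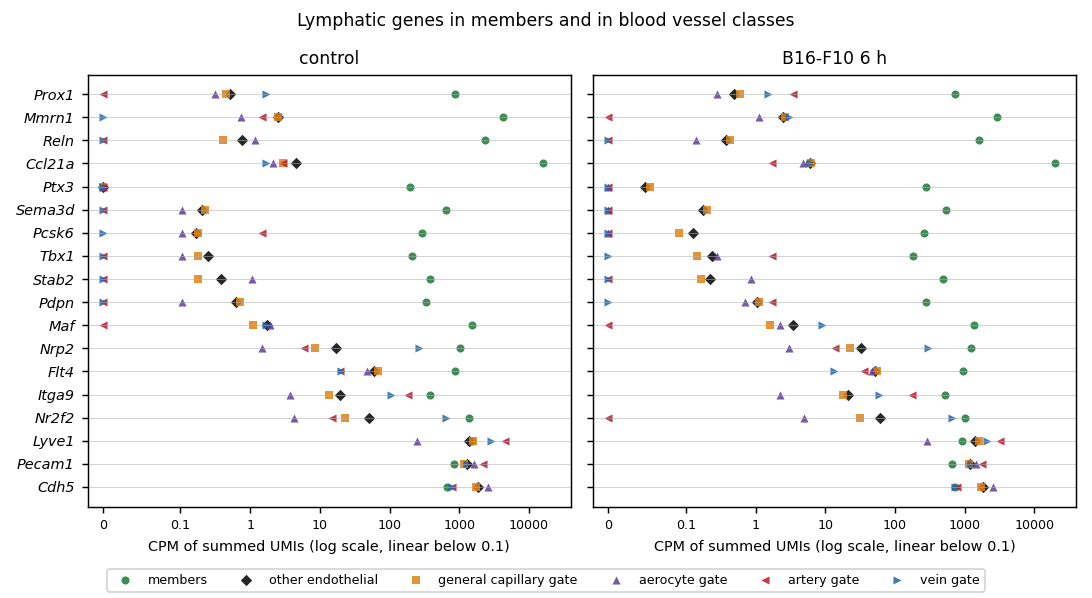
CPM of summed UMIs (log axis, linear below 0.1) for lymphatic and endothelial genes in members (green circles), other endothelial barcodes (black diamonds) and barcodes meeting a capillary, aerocyte, artery or vein gate, in each library. Genes from Prox1 to Maf sit far to the right in members alone, Nrp2, Itga9 and Nr2f2 have vein or artery barcodes nearby, and Lyve1 overlaps with the blood vessel classes.

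Members differed among themselves. The sum of Prox1, Mmrn1 and Reln ranged from 4 to 238 UMIs in the control (median 59) and from 4 to 417 in the B16-F10 library (median 59.5). Sums of 4 or 5 were found in 2 and 3 members, sums of 6 or 7 in none, and sums of at least 8 in 61 and 69. All 61 of these control members and 68 of the 69 B16-F10 members had Ccl21a, with a median of 150 and 216 UMIs. Just outside the rule, 34 and 38 barcodes had Prox1 with a sum of 1 to 3, of which 1 and 4 had a Ccl21a UMI. A further 7 and 6 had no Prox1 but at least 4 UMIs of Mmrn1 and Reln, of which 1 and 2 had Ccl21a. After thinning, the variance of Ccl21a over members was 15.2 and 18.3 times its mean, that of Lyve1 7.21 and 5.54 times, that of the secreted protein Fgl2 4.96 and 6.65 times and that of Igfbp5 16.7 and 9.52 times. For Prox1 it was 1.08 and 1.85 and for Tbx1 1.11 and 1.10, where 1 is the value of counting error alone. Foxc2, a transcription factor of lymphatic valves, was found in 10 and 10 members, with 11 and 13 UMIs. The whole sets thus held few barcodes with the valve factor and wide ranges of Ccl21a, Lyve1 and Fgl2.

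Some members also held RNA of other cells, and more of them came from the B16-F10 library. A capillary, aerocyte, artery or vein gate was also met by 16 control and 33 B16-F10 members, mostly the general capillary gate (10 and 25), and over 5000 genes were found in 3 and 12. The doublet caller Scrublet marked 4 (6.35%) and 19 (26.4%) members, at a rate of 6.99% and 7.17% set for each library. A single B16-F10 member of 90449 UMIs carried 1239 UMIs of 8 melanoma genes, 322 of them Pmel, with 2 UMIs of Cdh5, 1 of Pecam1 and no Ccl21a UMI, which goes against the lymphatic label. In all, 2 control and 3 B16-F10 members lacked Ccl21a. The other 4 had 7085 to 26138 UMIs and a sum of 4, 5 or 10, and were led by genes such as Adh6b, Atf3, Palmd and Lsamp. Of these, a B16-F10 member of 15095 UMIs had 10 UMIs of Prox1 and 4 of Flt4 but 0 of Mmrn1, Reln, Maf, Pdpn and Stab2, beside 20 UMIs of mural and 15 of fibroblast genes, which also goes against the label. Therefore many results are also given for a stricter set, chosen after seeing the data, of members with a sum of at least 8 that met no other vessel gate. A ratio given for members alone is without this check. The stricter set held 46 control and 37 B16-F10 barcodes with a median of 7573 and 9343 UMIs, and 46 and 36 of these had Ccl21a. The B16-F10 member of 15095 UMIs is the 1 without it. Values with that member left out as well are given for Itga9, Airn, Jun, H2-K1 and the angiopoietin axis and in the closing section.

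**Figure D2:**
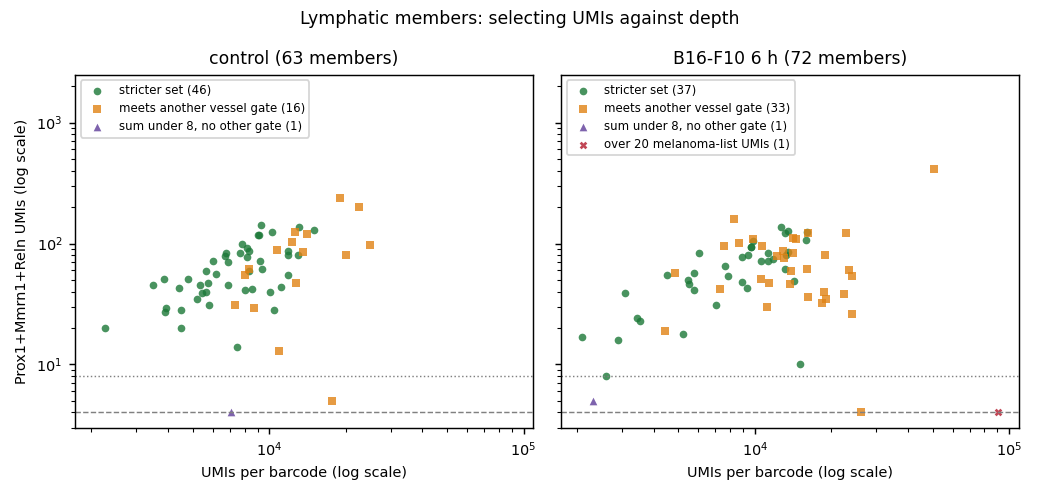
Each point is a member, plotted by its UMIs (log scale) and by its sum of Prox1, Mmrn1 and Reln UMIs (log scale), for the control (left, 63) and B16-F10 library (right, 72). Dashed and dotted lines mark sums of 4 and 8. Barcodes meeting another vessel gate (orange, 16 and 33) lie mostly toward high UMIs, and the barcode with melanoma RNA (red cross) lies at a sum of 4.

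The share of LECs in the endothelium differed by less than the counting error. Members made up 0.732% (0.563 to 0.936) of endothelial barcodes in the control and 0.838% (0.656 to 1.05) in the B16-F10 library. The difference of 0.105 percentage points had an interval of -0.161 to 0.374. In the stricter set the shares were 0.535% and 0.430%, and the difference was -0.104 (-0.318 to 0.106). A difference in the number of LECs was therefore not detectable at this depth, and its sign depended on the members that met other gates.

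Gene by gene, most of the LEC transcripts differed by less than 2-fold between the libraries. The log2 ratio is the CPM of the B16-F10 members over that of the control members. For a list it is the ratio of the summed CPM, and an interval follows each ratio. Genes with enough UMIs, at least 50 over both libraries, were counted. The median ratio over 5682 genes was 0.025. At least 2-fold higher were 212 genes (3.73%) and at least 2-fold lower 102 (1.8%). In the stricter set this was 62 (2.11%) and 49 (1.67%) of 2934 genes, with a median ratio of -0.023. In the other ECs, with far more UMIs, 1242 of 15712 genes (7.9%) were at least 2-fold higher and 501 (3.19%) at least 2-fold lower.

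Among lymphatic transcription factors, levels were slightly lower in the B16-F10 members but not in the stricter set. The 13 genes summed to 7169 and 5794 CPM in the control and B16-F10 members, a log2 ratio of -0.31 (-0.37 to -0.25), and to 7699 and 7464 CPM in the stricter set (log2 ratio -0.045, -0.12 to 0.035). Of 10 genes with enough UMIs, 1 was at least 2-fold higher and 0 lower, with a median of -0.26. The ratio of Nr2f2 was -0.41 (-0.55 to -0.27) in members and -0.33 (-0.52 to -0.14) in the stricter set. Maf was -0.15 (-0.27 to -0.022) in members and 0.20 (0.031 to 0.38) in the stricter set, and so turned direction. Tbx1 had 121 and 172 UMIs (log2 ratio -0.19, -0.53 to 0.16). The list holds Prox1, a gene of the rule. Without Prox1 the summed ratio was -0.32 (-0.38 to -0.25) in members and -0.067 (-0.15 to 0.018) in the stricter set.

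Genes of surface proteins differed in both directions. The 16 genes summed to 9487 and 8939.9 CPM (log2 ratio -0.086, -0.13 to -0.036), with a median of 0.12, a sign opposite to that of the sum, and 0 genes past 2-fold. In the stricter set the ratio was 0.15 (0.079 to 0.21), with 1 of 16 genes at least 2-fold higher. Lyve1 (ENSMUSG00000030787, chromosome 7, 110850607 to 110863239, minus strand), the most abundant of them in control members, was lower, with 1532 CPM (1433 to 1636) in the control and 904 CPM (844 to 966) in the B16-F10 library. Its ratio was -0.76 (-0.90 to -0.62) in members, -0.64 (-0.86 to -0.42) in the stricter set and -0.0029 (-0.015 to 0.0092) in the other ECs. The highest Lyve1 member had 89 of 891 UMIs in the control and 98 of 852 in the B16-F10 library, while the median member had 4.44 and 4.56 UMIs per 10000. The lower sum was thus not seen in the median barcode.

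Itga9 was the surface gene with the largest ratio in the stricter set. It had 223 and 497 UMIs or 383 and 527 CPM in members (log2 ratio 0.46, 0.23 to 0.69) and 127 and 285 UMIs or 362 and 865 CPM in the stricter set (log2 ratio 1.26, 0.95 to 1.57). It was found in 37 of 46 and 34 of 37 barcodes of that set, and after thinning in 39.1% and 56.8%, against 2.33% and 3.14% of other ECs. The member of that set that lacked Ccl21a held 23 of the 285 UMIs, and without it the ratio was 1.20 (0.89 to 1.52). The ratio of Itga9 in other ECs was 0.11 (0.012 to 0.22). Nrp2 had 1016 and 1234 CPM in members (log2 ratio 0.28, 0.14 to 0.42, and in the stricter set 0.62, 0.43 to 0.81), beside 0.95 (0.86 to 1.05) in other ECs at a far lower level. For Flt4 the ratio was 0.11 (-0.047 to 0.27) in members and 0.35 (0.14 to 0.56) in the stricter set. The scavenger receptors Stab1 (log2 ratio 0.14, -0.075 to 0.35) and Stab2 (log2 ratio 0.35, 0.12 to 0.59) and the mannose receptor Mrc1 (log2 ratio 0.18, -0.037 to 0.39) had positive ratios in members, and Pdpn -0.25 (-0.52 to 0.028). In the stricter set Stab1 gave 0.31 (0.034 to 0.60), Stab2 0.27 (-0.038 to 0.59), Mrc1 0.37 (0.086 to 0.66) and Pdpn -0.067 (-0.43 to 0.30).

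Secreted and matrix genes were carried by Ccl21a. The 15 genes summed to 29345 and 29174 CPM (log2 ratio -0.0084, -0.036 to 0.019), but the sum holds Mmrn1 and Reln, genes of the rule. Without Mmrn1 and Reln, the other 13 genes gave 0.11 (0.081 to 0.14) in members and 0.30 (0.26 to 0.34) in the stricter set, and without Ccl21a too -0.46 (-0.52 to -0.40) and -0.28 (-0.36 to -0.20). Of 14 of the 15 genes with enough UMIs, Mmrn1 and Reln among them, 0 passed 2-fold. Ccl21a was higher in the B16-F10 members, with a ratio of 0.30 (0.26 to 0.34), and 0.48 (0.43 to 0.53) in the stricter set. The median barcode of the stricter set had 169.9 and 228 Ccl21a UMIs per 10000, and the ranges of the 2 libraries overlapped. In other ECs the ratio was 0.44 (0.24 to 0.64), at levels below those that free RNA would supply (6.76 and 17.0 CPM). Ptx3 had 113 and 260 UMIs (log2 ratio 0.51, 0.18 to 0.84, and in the stricter set 0.52, 0.11 to 0.93). The guidance genes parted, with 0.35 (0.13 to 0.57) for Sema3a and -0.29 (-0.48 to -0.090) for Sema3d, whose ratio in the stricter set was 0.067. Il7, the survival factor of lymphocytes that LECs produce, had 89 and 78 UMIs (log2 ratio -0.89, -1.34 to -0.43, and in the stricter set -0.75, -1.40 to -0.12), and 1.09 and 1.08 CPM in other ECs. All lymphatic lists joined, without Prox1, Mmrn1 and Reln, gave 0.0022 (-0.022 to 0.026) in members with a median of -0.21, and 0.21 (0.18 to 0.25) in the stricter set. Without Ccl21a these were -0.25 and -0.035.

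**Figure D3:**
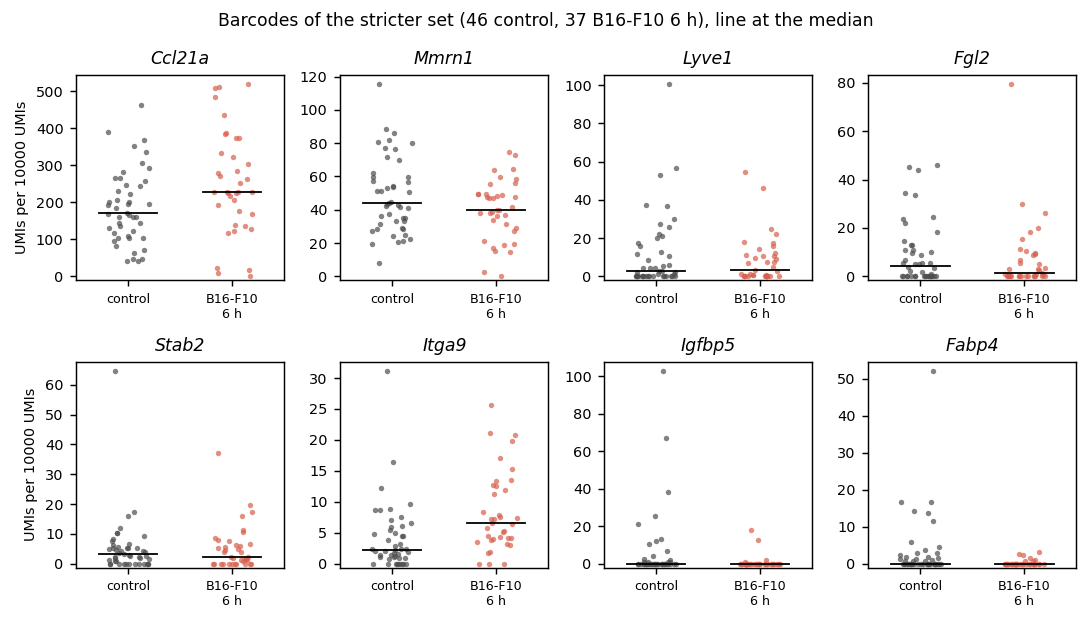
UMIs per 10000 UMIs of each barcode of the stricter set for 8 genes, in the control (grey, 46) and B16-F10 library (red, 37), with black lines at the medians. Ccl21a and Itga9 sit higher in the B16-F10 library with overlapping ranges, Lyve1 and Fgl2 are high in few barcodes of either, and Igfbp5 and Fabp4 are at 0 in most barcodes, with their highest values in the control.

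In members the summed levels of the VEGF-C axis and of valve genes were slightly higher, and that of the angiopoietin axis slightly lower. The VEGF-C axis of 16 genes gave 0.19 (0.10 to 0.27) in members and 0.33 (0.22 to 0.44) in the stricter set, beside -0.025 (-0.033 to -0.018) in other ECs. In members 2 of 9 genes with enough UMIs, Vegfa and Flt1, were at least 2-fold higher and 0 lower. Of these members, 10 control and 25 B16-F10 barcodes also met the general capillary gate. The part of Vegfa and Flt1 in the ratio of the stricter set was not tested. The 20 valve and collector genes gave 0.17 (0.081 to 0.26) and, in the stricter set, 0.32 (0.19 to 0.44) with a median of -0.065. Of 15 valve genes with enough UMIs in members, 9 lay above 0 and 6 below, with 1 at least 2-fold higher and 0 lower, and in the stricter set 4 of 9 lay above 0 and 5 below, with Itga9 at least 2-fold higher and 0 lower. In that set the median thus had a sign opposite to that of the sum, while Itga9 gave 1.26 (0.95 to 1.57). Gja1, a gap junction protein of lymphatic valves, was lower, with 519 and 352 CPM (log2 ratio -0.56, -0.79 to -0.33, and in the stricter set -0.57, -0.88 to -0.26), while in other ECs it had 4.85 and 11.7 CPM (log2 ratio 1.27, 1.10 to 1.45). The adrenomedullin receptor genes Calcrl and Ramp2 had 1068 and 1476 CPM and 968 and 1068 CPM in members. Their list of 6 genes gave 0.25 (0.15 to 0.35), with a median of -0.54 over 4 genes and 2 of the 4 at least 2-fold lower, and -0.56 (-0.56 to -0.55) in other ECs. The same list gave 0.14 (-0.018 to 0.30) in the stricter set. The angiopoietin and ephrin axis of 10 genes gave -0.22 (-0.33 to -0.11), with Angpt2, the vessel-destabilizing ligand, at 213 and 153 CPM (log2 ratio -0.48, -0.84 to -0.12) and Tie1 at 378 and 280.0 CPM (log2 ratio -0.43, -0.70 to -0.17). In the stricter set the axis gave -0.19 (-0.36 to -0.017), Angpt2 -0.24 (-0.71 to 0.23) and Tie1 -0.38 (-0.77 to 0.0036). Without the member of that set that lacked Ccl21a, the axis gave -0.16 (-0.33 to 0.010). Foxo1, a transcription factor downstream of Tie signals, had 224 and 130.5 CPM (log2 ratio -0.78, -1.14 to -0.41, and in the stricter set -1.06, -1.66 to -0.48). The 8 genes of the sphingosine 1-phosphate axis gave 0.14 (-0.0019 to 0.28) in members and -0.041 (-0.27 to 0.19) in the stricter set.

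Junction genes differed little between the libraries. The 20 genes gave 0.15 (0.083 to 0.21) in members and 0.072 (-0.018 to 0.16) in the stricter set, with 0 of 15 past 2-fold. Cldn5, the main claudin of endothelium, had 1470.2 and 1872 CPM (log2 ratio 0.35, 0.23 to 0.47), and Pecam1 gave -0.31 (-0.49 to -0.14). The sum of 20 genes of leukocyte adhesion gave -0.11 (-0.19 to -0.038) in members and -0.060 (-0.17 to 0.052) in the stricter set. With a median of 0.18 in members, 3 of 11 were at least 2-fold higher there. They include Icam2, with 165 and 369 CPM (log2 ratio 1.16, 0.83 to 1.50), which gave 0.78 (0.32 to 1.25) in the stricter set. The 24 genes of chemokines, cytokines and scavengers, 23 of them in the files, gave 0.29 (0.25 to 0.33), and -0.13 without Ccl21a. Of the scavenging receptors, Ackr2, which removes inflammatory chemokines, had 41 and 92 UMIs (log2 ratio 0.47, -0.077 to 1.04, and in the stricter set 1.04, 0.34 to 1.76). Ackr3, which removes Cxcl12 and adrenomedullin, had 52 and 36 UMIs in 16 and 9 members (log2 ratio -1.23, -1.88 to -0.59), and 27 and 0 UMIs in the stricter set. In other ECs Ackr3 had 76.5 and 181 CPM (log2 ratio 1.24, 1.19 to 1.28), a direction opposite to that in members. With 36 UMIs in B16-F10 members, this rests on few counts, and the difference was not tested.

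The summed level of iron and acute-phase genes, led by Fth1, Cp and Lcn2, was high in LECs, and lower in the B16-F10 library where that of the other ECs was higher. Their 11 genes summed to 9689.5 and 8382 CPM in members and 2505 and 3588 CPM in other ECs. The ratio was -0.21 (-0.26 to -0.16) in members, -0.43 (-0.50 to -0.35) in the stricter set and 0.52 (0.51 to 0.53) in other ECs. Cp (ceruloplasmin, ENSMUSG00000003617, chromosome 3, 19957054 to 20009145, plus strand), the copper ferroxidase that lets iron leave cells, had 1750.5 CPM (1645 to 1861) in the control and 1098 CPM (1032 to 1167) in the B16-F10 library. Its ratio was -0.67 (-0.80 to -0.55) in members, -0.62 (-0.79 to -0.46) in the stricter set and 0.76 (0.60 to 0.93) in other ECs, where it had 5.99 and 10.2 CPM. Lcn2 (lipocalin 2), which binds iron-carrying siderophores of bacteria, had 1312 and 880.3 CPM in members (log2 ratio -0.58, -0.72 to -0.43) and 6.11 and 15.8 CPM in other ECs (log2 ratio 1.37, 1.21 to 1.52). Fth1, the ferritin heavy chain, whose processed copies in the genome make its counts uncertain, gave -0.24 (-0.31 to -0.18) in members, -0.47 (-0.56 to -0.37) in the stricter set and 0.27 (0.26 to 0.28) in other ECs. Trf (transferrin) gave -0.36 (-0.63 to -0.090) in members and -0.12 (-0.49 to 0.25) in the stricter set. The list did not move as a whole. Of 6 genes with enough UMIs, 1 was at least 2-fold higher and 0 lower. This was Hmox1, an oxygenase that frees iron from heme, with 15 and 83 UMIs (log2 ratio 1.77, 0.97 to 2.67, and in the stricter set 0.21, -1.04 to 1.47). Ftl1, the ferritin light chain, gave 0.87 (0.72 to 1.03) in members, 0.029 (-0.22 to 0.27) in the stricter set and 0.77 (0.76 to 0.78) in other ECs. The difference of the summed list between members and other ECs was not tested.

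**Figure D4:**
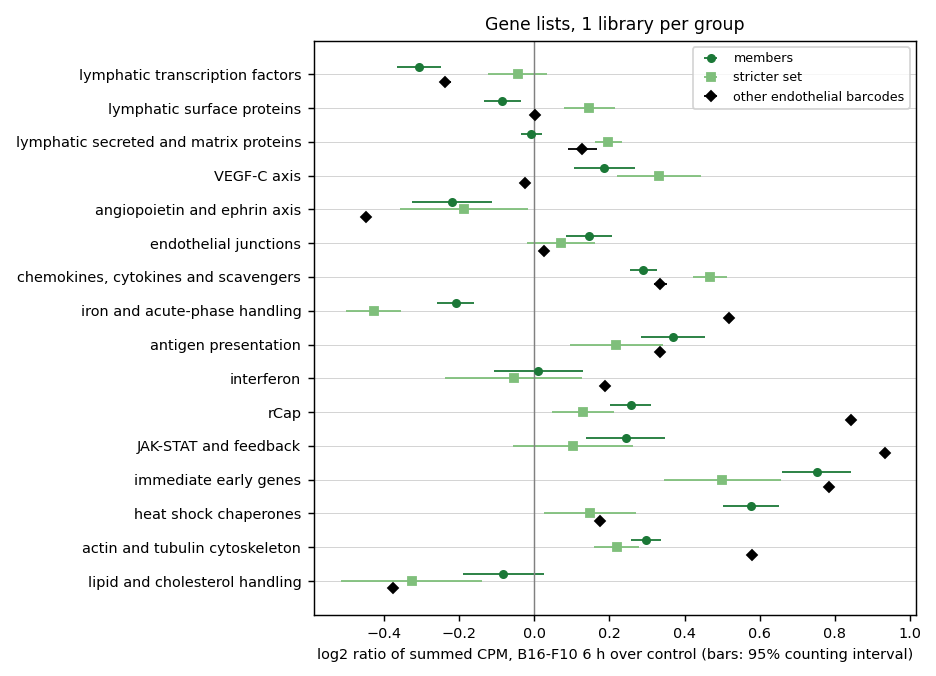
Log2 ratio of the summed CPM of each gene list, B16-F10 over control, for members (dark green circles), the stricter set (light green squares) and other endothelial barcodes (black diamonds), with bars for the 95% counting interval. The iron list lies below 0 in members and above 0 in other ECs, and the rCap and JAK-STAT lists lie nearer 0 in members than in other ECs.

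A list of markers that the study gives for reactive capillaries (rCap) was less clearly higher in LECs than in the other ECs, a difference that was not tested. The study chose it partly on these libraries, so its direction is not independent evidence. In members, the 44 genes summed to 7017 and 8385 CPM, a ratio of 0.26 (0.20 to 0.31), and 6 of 33 genes with enough UMIs were at least 2-fold higher and 2 lower, with a median of 0.32. In the stricter set the ratio was 0.13 (0.047 to 0.21), and 1 of 19 genes was at least 2-fold higher. In other ECs it was 0.84 (0.84 to 0.85), and 31 of 44 were at least 2-fold higher, with a median of 1.32. The ratio in members was -0.15 when members meeting another vessel gate were left out and -0.037 when doublets by Scrublet were. The barcode with melanoma RNA is among the 39 B16-F10 members kept without other gates, and leaving it out as well gave 0.11 (0.027 to 0.19), while leaving out that barcode alone gave 0.37. The 8 general capillary genes summed to 996 and 1625 CPM in members (log2 ratio 0.71, 0.57 to 0.85) and 641 and 740.3 CPM in the stricter set (log2 ratio 0.21, -0.059 to 0.48). The part of capillary RNA in the rCap value was not tested beyond these sets.

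Pim3, a serine/threonine kinase and the marker the study followed, had 48 and 109 UMIs or 82.5 and 116 CPM in members (log2 ratio 0.49, -0.016 to 1.01), 37 and 24 UMIs in the stricter set (log2 ratio -0.53, -1.34 to 0.25) and 74.8 and 269.6 CPM in other ECs (log2 ratio 1.85, 1.81 to 1.89). Bcl3, an atypical inhibitor of NF-kB, had 6 and 42 UMIs (log2 ratio 2.11, 0.87 to 3.64), and 1 and 7 UMIs in the stricter set. Inhbb, the activin beta B subunit, had 4 and 15 UMIs, and 1 and 2 in the stricter set, beside 4.07 and 100.1 CPM in other ECs. Cmah, an enzyme of sialic acid synthesis, had 70 and 142 UMIs (log2 ratio 0.32, -0.10 to 0.76) and 37 and 10 UMIs in the stricter set (log2 ratio -1.80, -2.97 to -0.76), of opposite sign, beside 2.47 (2.36 to 2.58) in other ECs. The 24 genes of JAK-STAT signaling gave 0.24 (0.14 to 0.35) in members (median -0.0011), 0.10 (-0.058 to 0.26) in the stricter set and 0.93 (0.93 to 0.94) in other ECs. Socs3, the feedback inhibitor of this pathway, had 20 and 113 UMIs (log2 ratio 1.80, 1.11 to 2.57), and 14 and 17 UMIs in the stricter set (log2 ratio 0.37, -0.74 to 1.50). After thinning, 4.35% and 18.9% of the stricter set had a Socs3 UMI, against 7.89% and 44.1% of other ECs. Jak2 had 42 and 55 UMIs (log2 ratio -0.31, -0.91 to 0.31) and 27 and 5 UMIs in the stricter set (log2 ratio -2.34, -4.08 to -0.94). Cebpd and Cebpb, transcription factors of the acute-phase response, gave 1.08 (0.76 to 1.41) and 0.94 (0.50 to 1.39), and 0.83 (0.31 to 1.36) and 1.26 (0.60 to 1.96) in the stricter set. The interferon list of 50 genes, also from the study, gave 0.010 (-0.11 to 0.13) in members, -0.055 (-0.24 to 0.13) in the stricter set and 0.19 (0.18 to 0.20) in other ECs. Rsad2, an antiviral protein, had 24 and 5 UMIs, with all 24 control UMIs of the stricter set in 4 barcodes.

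Immediate early genes were higher in LECs of the B16-F10 library under both definitions. The 20 genes summed to 2258 and 3801 CPM in members (log2 ratio 0.75, 0.66 to 0.84), 1678 and 2373 CPM in the stricter set (log2 ratio 0.50, 0.34 to 0.66) and 4483 and 7723 CPM in other ECs (log2 ratio 0.78, 0.78 to 0.79). In members 5 of 15 were at least 2-fold higher and 0 lower, with a median of 0.78, and in the stricter set 1 of 11 was. Egr1, a zinc finger factor of growth and stress responses, had 16 and 164 UMIs (log2 ratio 2.66, 1.92 to 3.50) and 10 and 59 UMIs in the stricter set (log2 ratio 2.65, 1.67 to 3.78), where they lay in 2 and 10 barcodes. A single barcode held 9 of these 10 control UMIs, and another 28 of the 59 B16-F10 UMIs. Ier3, an early response survival gene, gave 2.33 (1.64 to 3.10) and, in the stricter set, 1.48 (0.25 to 2.87). Jun gave 1.29 (1.02 to 1.57) and 0.65 (0.089 to 1.21), Junb 0.82 (0.52 to 1.13) and 0.72 (0.20 to 1.25), and Fos 0.99 (0.61 to 1.38) and 0.54 (-0.30 to 1.40). Without the member of the stricter set that lacked Ccl21a, Jun gave 0.53 (-0.038 to 1.12) there. Klf2, which answers to fluid flow, had 308 and 528 CPM (log2 ratio 0.78, 0.53 to 1.03), and Klf4 gave 0.32 (-0.023 to 0.66) in members and -0.67 (-1.28 to -0.090) in the stricter set.

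Cytoskeletal genes were higher too. The 24 actin and tubulin genes gave 0.30 (0.26 to 0.34) in members, 0.22 (0.16 to 0.28) in the stricter set and 0.58 (0.57 to 0.58) in other ECs, with 4 of 22 at least 2-fold higher in members. Actb had 1697 and 2978 CPM (log2 ratio 0.81, 0.71 to 0.92, and in the stricter set 0.71, 0.56 to 0.86) and Actg1 366 and 767 CPM (log2 ratio 1.07, 0.84 to 1.29, and in the stricter set 0.91, 0.54 to 1.28). The actin-binding peptide genes Tmsb4x (log2 ratio -0.00047, -0.070 to 0.069) and Tmsb10 (log2 ratio 0.13, -0.030 to 0.29) were not, and Tmsb10 gave -0.50 (-0.75 to -0.26) in the stricter set. Heat shock chaperones gave 0.58 (0.50 to 0.65) in members and 0.15 (0.027 to 0.27) in the stricter set. Without the melanoma barcode the ratio was 0.019 (-0.062 to 0.10). That barcode held most of the 554 B16-F10 UMIs of Hsp90aa1, whose ratio was 1.88 with it and 0.018 without it, and Cryab had 0 and 378 UMIs with it and 0 in both libraries of the stricter set. Hspa5 (BiP), the chaperone of the endoplasmic reticulum, gave 0.98 (0.72 to 1.25) in members, 1.27 (0.86 to 1.69) in the stricter set and 0.40 (0.36 to 0.43) in other ECs. The 10 metallothionein and zinc genes gave 0.54 (0.28 to 0.81) in members and -0.079 (-0.49 to 0.33) in the stricter set. Mt1, a metallothionein, gave 1.30 (0.71 to 1.94) in members and -1.77 (-3.11 to -0.60) in the stricter set.

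Antigen presentation genes gave 0.37 (0.29 to 0.45) in members and 0.22 (0.095 to 0.34) in the stricter set, beside 0.33 (0.33 to 0.34) in other ECs. H2-K1, a class I heavy chain with close paralogs that can share its reads, had 609 and 883 CPM in members (log2 ratio 0.54, 0.36 to 0.72) and B2m 789 and 1038 CPM (log2 ratio 0.40, 0.23 to 0.56). In the stricter set H2-K1 gave 0.26 (-0.0051 to 0.52) and B2m 0.30 (0.057 to 0.54). Without the member of that set that lacked Ccl21a, H2-K1 gave 0.18 (-0.086 to 0.45). Lipid handling gave -0.083 (-0.19 to 0.025) and, in the stricter set, -0.33 (-0.51 to -0.14). It included Fabp4, a fatty acid binding protein of capillary ECs, with 202 and 125 UMIs in 31 and 18 members (log2 ratio -1.39, -1.72 to -1.06), 127 and 10 UMIs in the stricter set (log2 ratio -3.58, -4.67 to -2.65) and 624 and 101 CPM in other ECs (log2 ratio -2.63, -2.66 to -2.60). Fabp4 was thus lower in all 3 sets. Igfbp5, a binding protein of insulin-like growth factors, had 990.4 CPM (911 to 1075) in the control and 283 CPM (250.2 to 319) in the B16-F10 library in members, a ratio of -1.81 (-2.02 to -1.59). In the stricter set it had 216 and 23 UMIs in 16 of 46 and 4 of 37 barcodes (log2 ratio -3.14, -3.83 to -2.52), and after thinning 26.1% and 8.11% of them had a UMI, against 1.32% and 0.911% of other ECs. Igfbp5 was singled out for its values.

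The genes with the largest ratios in members leaned on few barcodes. The 12 largest included Prx, Myo5a, Slc6a6, Mthfd1l, 4930554G24Rik, Mlec, Lgals1, Fmn1, Tns3, Tbx3 and Chsy3. For Myo5a, Slc6a6, Mthfd1l, Lgals1, Fmn1 and Chsy3, 1 barcode held 62.7% to 87.0% of the B16-F10 UMIs. Prx, 4930554G24Rik, Mlec and Tbx3 had 54, 58, 49 and 76 UMIs in B16-F10 members, and 2, 0, 7 and 6 in the stricter set. Tns3, which links integrins to actin, was less dependent on the members left out, with 4 and 62 UMIs (log2 ratio 3.26, 1.83 to 5.18) in members and 1 and 19 UMIs (log2 ratio 4.34, 1.69 to 9.72) in the stricter set, and Fmn1, an actin nucleator, had 4 and 20 UMIs there (log2 ratio 2.41, 0.84 to 4.42).

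Of the 12 smallest ratios, 10 were also below 0 in the stricter set. That set is a part of the members that gave the ranking, so the shared sign is not independent evidence. Ptn (pleiotrophin), a heparin-binding growth factor, had 89 and 11 UMIs in 13 and 2 members (log2 ratio -3.71, -4.77 to -2.81) and 43 and 0 in the stricter set. Cacna1e, a calcium channel subunit, had 107 and 25 UMIs in 29 and 11 members (log2 ratio -2.79, -3.49 to -2.16, and in the stricter set -2.06, -2.89 to -1.31). Aph1b, a gamma-secretase subunit, gave -2.62 (-3.58 to -1.75) and -2.67 (-4.39 to -1.31). Nts, the neuropeptide neurotensin that lymphatic endothelium can produce, had 84 and 25 UMIs in 13 and 5 members (log2 ratio -2.45, -3.15 to -1.79). Clca3a1, a surface protein known from lymphatic and other endothelium, had 89 and 32 UMIs (log2 ratio -2.17, -2.80 to -1.58) and 39 and 3 UMIs in the stricter set. Csmd1, Gucy1b1, Nrxn3, Otud1 and Fndc1 were also lower in both sets. Airn and Mgp were not, since 1 control member that also met the aerocyte and artery gates held 302 of 365 Airn and 169 of 187 Mgp UMIs, and their ratios in the stricter set were 0.46 and 0.83 (for Airn 0.062 without the member that lacked Ccl21a).

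Some genes were higher in both sets though not among the 12. Slc9a9, an endosomal sodium/proton exchanger, had 124 and 445 UMIs in 32 and 54 members (log2 ratio 1.15, 0.86 to 1.45, and in the stricter set 1.62, 1.26 to 2.00) and 1.59 and 3.11 CPM in other ECs. Creb5, a transcription factor, gave 1.04 (0.63 to 1.46) and 1.72 (1.20 to 2.27). Ccnd2, a D-type cyclin, gave 2.16 (1.53 to 2.86) and 2.52 (1.54 to 3.66), and Mmp14, a membrane metalloprotease, 1.23 (0.90 to 1.58) and 1.21 (0.75 to 1.68). Gria2, a glutamate receptor subunit, had 12 and 87 UMIs in 8 and 17 members (log2 ratio 2.16, 1.28 to 3.17, and in the stricter set 2.85, 1.83 to 4.05) and was near 0 in other ECs. Lower in both were March3, a ubiquitin ligase, with -1.16 (-1.57 to -0.76) and -0.99 (-1.60 to -0.40) against 1.54 (1.47 to 1.61) in other ECs, and Slfn2, with -2.08 (-2.80 to -1.39) and -1.63 (-2.82 to -0.58). The 7 genes of this paragraph were singled out for their values.

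**Figure D5:**
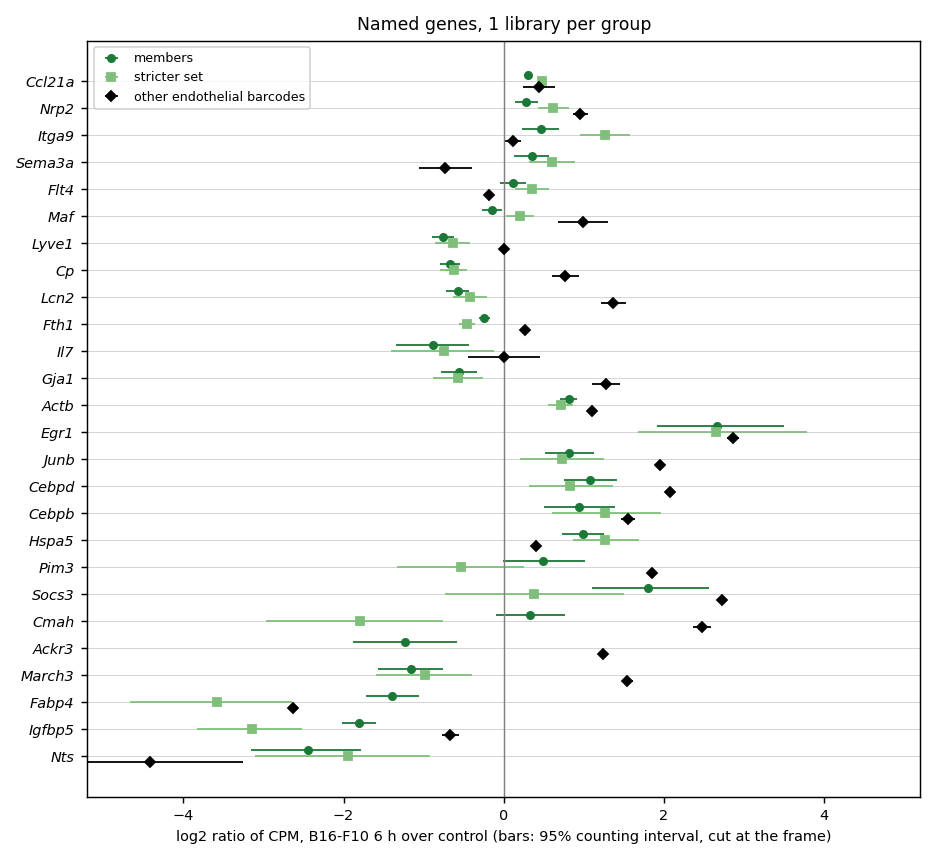
Log2 ratio of CPM, B16-F10 over control, for 26 named genes in members (dark green circles), the stricter set (light green squares) and other endothelial barcodes (black diamonds), with bars for the 95% counting interval. Points are drawn where both libraries had more than 3 UMIs. Cp, Lcn2, Gja1, Ackr3 and March3 lie below 0 in members and above 0 in other ECs, and Egr1 lies between 2.65 and 2.86 in all 3.

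Of the blood vessel markers, the 8 vein genes summed to 989 and 994 CPM in members and 1074 and 1159 CPM in the stricter set, above the 508 and 597 CPM of other ECs. Most of this was Prss23, a protease, with 497 and 457 CPM in members, and Lrg1, a secreted glycoprotein, with 390.3 and 499.6 CPM, while Slc6a2 was at 0 in both libraries of the stricter set. The 8 artery genes summed to 433 and 295 CPM in members and 319 and 203 CPM in the stricter set, below the 993 and 684 CPM of other ECs, with Dkk2 at 0. The 8 aerocyte genes had 191 and 300.2 CPM in members, 108 and 48.5 CPM in the stricter set and 1637 and 1103 CPM in other ECs. Among cells outside the endothelium, mural genes had 44 and 82 UMIs (75.7 and 87.0 CPM) in members and 22 and 44 in the stricter set, with 1 of 8 genes found in the control and Acta2 at 0 in both libraries. Fibroblast genes had 35 and 41 UMIs, and 12 and 16 in the stricter set, with Lum at 0. Of the 44 mural and 16 fibroblast UMIs of the B16-F10 stricter set, 20 and 15 lay in its member without Ccl21a. Lymphocyte genes had 2 and 6 UMIs in members. The 8 melanoma genes summed to 24.1 and 1366 CPM in members and 25.6 and 57.6 CPM in the stricter set. Platelet genes had 10 and 82 UMIs in members and 8 and 6 in the stricter set, and the 9 myeloid genes 19 and 97, and 9 and 53 in the stricter set. Of the myeloid UMIs 8 and 68 were Fcer1g, while Csf1r, Marco and Itgam were at 0 in both libraries. Epithelial genes summed to 165 and 115 CPM and red cell genes to 574 and 767 CPM, at 1.24% to 1.47% and 1.01% to 1.75% of their level in barcodes of 1 to 100 UMIs. Mesothelial genes were at 0 in both libraries. Their part in the results was not tested beyond the stricter set.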

How the data were processed

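Single-cell RNA-seq was available for 2 libraries. The authors deposited raw UMI counts per gene and barcode, with nearly empty barcodes included, aligned to mm10, and the submitters' processing notes name Cell Ranger 7.2.0 and Seurat 4.4.0. The files held 32285 gene IDs, of which 32158 were in GENCODE M21 (GRCm38). No deposited annotation of cell types was used. UMIs were summed over members of a library, scaled to counts per 1000000 (CPM), and compared as a log2 ratio with an exact interval conditional on the sum, given 1 library per group and therefore without a test. The members and lists were chosen with earlier results of these data known. Genes to be named were those of the lymphatic, VEGF-C, adrenomedullin, chemokine and junction lists (the text gives those its results turn on), the 12 largest and 12 smallest ratios (at least 50 UMIs, at least 10% of members of the higher group, interval without 0), the 20 leading identity genes and up to 6 genes of other lists. Where a library had 0 UMIs the floor was 3. Doublets were kept, with Scrublet (scanpy 1.11.5) as an alternative at 0.8% per 1000 barcodes. For shares of cells, barcodes were thinned to 2000 UMIs, and for other ECs 1000 barcodes per library were drawn, of which 988 had 2000 UMIs. Free RNA was measured in barcodes of 1 to 100 UMIs. Python 3.11.15, numpy 2.4.6, scipy 1.17.1, pandas 2.3.3 and matplotlib 3.10.9 were used, and the scripts were tested on simulated data. The number of unused columns was 0. Some results are not reported here.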

Additional observations from a re-analysis of the deposited data

Results flagged for a closer look

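For 5 of 326 named genes the ratio of the B16-F10 to the control library was below 0 in members and above 0 in the other endothelial barcodes, with both whole intervals beyond 0.5 in size and that of the stricter set below 0. The named genes were partly chosen for their ratios in these members, Gucy1b1 and March3 among them, so the count is only a description. The difference of the log2 ratios, members minus other ECs, was -2.47 for Ackr3 (-3.12 to -1.82), -1.44 for Cp (-1.65 to -1.23), -3.18 for Gucy1b1 (-4.03 to -2.40), -2.70 for March3 (-3.12 to -2.29) and -2.01 for Scgb1a1 (-2.60 to -1.44). Ackr3 binds Cxcl12 and adrenomedullin, Cp oxidizes iron, Gucy1b1 is a subunit of the receptor of nitric oxide and March3 is a ubiquitin ligase. Scgb1a1 is a secretory product of club cells of the airway, and free RNA would give 96.5 and 28.2 CPM of it in members, where 113 and 45.6 CPM were observed. In other ECs free RNA would give 330 and 84.4 CPM of Scgb1a1, where 1120 and 1814 CPM were observed. The summed iron and acute-phase list, singled out for its values, differed by -0.728. With 1 library per group these differences were not tested.

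Ccl21a was also found in barcodes outside the comparisons, and its level was higher in the B16-F10 library in each class of them. It was 72.7 CPM where 300 or more but under 1000 genes were found (control 31.5), 156 CPM where under 300 genes but more than 100 UMIs were (control 93.6) and 326 CPM in barcodes of 1 to 100 UMIs (control 196). Prox1, Mmrn1 and Reln summed went the other way in these classes. In the same order they had 103 (control 142), 46.5 (control 71.0) and 41.4 CPM (control 70.2). The differences were not tested.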

How the results depend on the processing

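No paired analysis was possible because there was only 1 library on either side. Without replicates, intervals hold counting error alone, and genes under 50 UMIs were too sparse to compare. Alternatives are named by what they changed. Those of the stricter set, with or without its member lacking Ccl21a, and those leaving out the melanoma barcode, alone or with the members meeting another gate, were chosen after seeing the data, and the cause of a change was not tested unless the members left out show it. Leaving out members meeting another gate alone keeps the melanoma barcode. As reported, 212 genes were at least 2-fold higher and 102 lower. Higher genes numbered 74 with 1000 to 5000 genes per barcode, 121 with a sum of at least 8, 138 without Scrublet doublets, 28 after thinning to 2000 UMIs, 554 with at least 20 UMIs, 1215 with no minimum and 62 in the stricter set. Lower genes numbered 19 after thinning, 276 with at least 20 UMIs, 2471 with no minimum and 49 in the stricter set.

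The rCap log2 ratio was 0.14 with at most 5000 genes, 0.31 with a sum of at least 8, -0.037 without Scrublet doublets, -0.15 without members meeting another vessel gate, 0.39 without the richest member, 0.13 in the stricter set and 0.37 without the melanoma barcode. The lymphatic identity ratio of 0.0022 became 0.26 with at most 5000 genes, 0.13 with a sum of at least 8, 0.18 without Scrublet doublets, -0.096 without members meeting another gate, 0.18 after thinning, -0.023 when scaled by the median ratio, 0.13 as a mean over cells, 0.12 without the richest member, 0.21 in the stricter set and 0.14 without the melanoma barcode. Immediate early genes gave 0.53, 0.66, 0.46 and 0.62 for the first 4 of these alternatives, 0.59 after thinning and as a mean over cells, and 0.50 in the stricter set. Heat shock chaperones gave 0.099, 0.012, 0.70 and 1.21 for the first 4, 0.20 after thinning, 0.18 as a mean over cells, -0.0068 without the richest member, 0.15 in the stricter set and 0.019 without the melanoma barcode. Cytoskeletal genes gave 0.25 without Scrublet doublets, 0.15 without members meeting another gate and 0.22 in the stricter set.

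Of 96 genes followed, 79 had an interval clear of 0, and 11 of these turned direction under at least 1 alternative, Cryab only through the floor. Sema3d gave 0.26 after thinning and 0.067 in the stricter set. Maf gave 0.27 with at most 5000 genes, 0.014 without Scrublet doublets, 0.23 after thinning, 0.022 as a mean over cells, 0.0059 without the richest member and 0.20 in the stricter set. Stab2 gave -0.047 and H2-K1 -0.048 without members meeting another gate, and Pecam1 0.0071 after thinning. Hsp90aa1 gave -0.022 with at most 5000 genes, -0.0027 with a sum of at least 8 and -0.045 without the richest member. Cryab gave -0.15 with a sum of at least 8, -0.20 without the richest member and -0.14 without the melanoma barcode. It had no UMI in control members, so these values come from the floor of 3 and carry no direction. Mt1 gave -0.95 with at most 5000 genes, -0.34 with a sum of at least 8, -0.047 without the richest member and -1.77 in the stricter set. Chsy3 gave -0.18 with at most 5000 genes, -0.080 with a sum of at least 8, -0.13 without the richest member and -0.066 without the melanoma barcode. Airn gave 0.70 without members meeting another gate and 0.46 in the stricter set, and Mgp 1.29 with a sum of at least 8, 0.56 without members meeting another gate and 0.83 in the stricter set.

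Leaving out the members meeting another gate and the melanoma barcode together gave 55 genes at least 2-fold higher and 48 lower, and 0.11 for rCap, 0.23 for lymphatic identity, 0.38 for immediate early genes, 0.13 for heat shock chaperones and 0.16 for cytoskeletal genes. It gave 0.091 for Sema3d, 0.23 for Maf, -0.019 for Hsp90aa1, -1.75 for Mt1, 0.26 for Airn and 0.85 for Mgp. The stricter set without its member lacking Ccl21a gave 59 higher and 56 lower genes, and 0.15, 0.27, 0.54, 0.13 and 0.23 for the same 5 lists. It gave 0.13 for Sema3d, 0.27 for Maf, -1.70 for Mt1, 0.062 for Airn and 0.84 for Mgp.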
